A study of Mus musculus with 7 samples.

Results

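Transcripts of 10 genes of the transforming growth factor beta (TGF-beta) and bone morphogenetic protein (BMP) pathway were followed in mouse alveolar macrophages, the phagocytes that live in the airspaces of the lung. They were the ligand genes Tgfb1 and Bmp2, the type I receptor genes Tgfbr1, Acvrl1 and Bmpr1a, the type II receptor genes Tgfbr2 and Bmpr2, the co-receptor genes Eng and Tgfbr3, and the inhibitor gene Smad7. The 10 were given as a list of names. All of them were found among the 27179 genes counted, and all passed the filter on low counts. Bmp2 passed through its Suz12 cKO counts alone. Tgfbr3 was above the filter level in 2 WT libraries, too few to pass without its Suz12 cKO counts. The list was drawn up with the difference between the genotypes of these same libraries in view, so the values of the 10 genes are given as a description, with no p-value, and nothing is read from how many of them passed a threshold.

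The cells were sorted from the lungs of chimeras, C57BL/6-Ly5.1 mice that had been lethally irradiated and given marrow. In the Suz12 cKO group, 90% of that marrow was Ly5.2 with a conditional knockout of Suz12, which encodes a subunit of the repressive histone methyltransferase complex PRC2, and in the WT group 90% was wild type Ly5.2. In both groups the remaining 10% was wild type Ly5.1 marrow, the same Ly5 allele as that of the host. There were 3 Suz12 cKO and 4 WT libraries, called biological replicates by the submitters. The sources used here do not give the Cre line, the deleted exons, the animals' age, or whether Ly5.1 cells and surviving host macrophages were gated out of the sort.

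Ligands of this family bind pairs of type I and type II receptors, which are membrane kinases. The activated type I receptor phosphorylates Smad proteins: Smad2 and Smad3 after TGF-beta or activin, and Smad1, Smad5 and Smad9 after BMPs, each joined by Smad4 on the way to the nucleus. Endoglin (Eng) and betaglycan (Tgfbr3) hold ligand at the membrane for these receptors, and Smad6 and Smad7 block the signal. In the lung, TGF-beta is known as a factor that alveolar macrophages both make and need for their development.

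Promoter sequences are shown for 4 of the genes, because 2 of them, Eng and Bmpr1a, were among the genes with much higher transcript levels in Suz12 cKO and the other 2, Bmpr2 and Tgfb1, were not. Each runs 5′ to 3′ from 250 bases before to 50 bases after a listed start site (RefSeq, GRCm38.p6). For Eng, Bmpr2 and Tgfb1 that site is the start of the gene. The Bmpr1a window lies inside its gene (34411061 to 34503336, minus strand), downstream of the outermost start. Bases are in lower case with every CpG dinucleotide in capitals, since PRC2 in mammals is known to gather at promoters rich in CpG.
Eng promoter, chr2:32646345-32646644, plus strand: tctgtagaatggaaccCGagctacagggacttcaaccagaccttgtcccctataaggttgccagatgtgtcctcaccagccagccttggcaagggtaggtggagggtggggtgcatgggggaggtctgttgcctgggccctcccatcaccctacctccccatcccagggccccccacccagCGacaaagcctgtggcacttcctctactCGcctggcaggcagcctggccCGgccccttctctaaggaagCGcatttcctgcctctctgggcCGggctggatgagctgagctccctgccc
Bmpr1a promoter, chr14:34502497-34502796, minus strand: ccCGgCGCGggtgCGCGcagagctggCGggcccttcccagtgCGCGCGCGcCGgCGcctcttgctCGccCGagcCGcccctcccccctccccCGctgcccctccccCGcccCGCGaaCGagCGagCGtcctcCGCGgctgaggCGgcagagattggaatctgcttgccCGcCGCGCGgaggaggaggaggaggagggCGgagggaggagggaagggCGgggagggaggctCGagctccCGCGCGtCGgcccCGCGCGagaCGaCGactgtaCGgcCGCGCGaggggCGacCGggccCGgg
Bmpr2 promoter, chr1:59764029-59764328, plus strand: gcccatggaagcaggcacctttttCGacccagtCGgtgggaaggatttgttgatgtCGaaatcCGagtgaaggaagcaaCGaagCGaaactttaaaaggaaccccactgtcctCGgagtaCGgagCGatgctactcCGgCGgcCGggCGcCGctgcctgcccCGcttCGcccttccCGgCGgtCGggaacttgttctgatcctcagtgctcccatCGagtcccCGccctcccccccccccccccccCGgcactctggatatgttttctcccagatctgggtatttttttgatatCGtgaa
Tgfb1 promoter, chr7:25686752-25687051, plus strand: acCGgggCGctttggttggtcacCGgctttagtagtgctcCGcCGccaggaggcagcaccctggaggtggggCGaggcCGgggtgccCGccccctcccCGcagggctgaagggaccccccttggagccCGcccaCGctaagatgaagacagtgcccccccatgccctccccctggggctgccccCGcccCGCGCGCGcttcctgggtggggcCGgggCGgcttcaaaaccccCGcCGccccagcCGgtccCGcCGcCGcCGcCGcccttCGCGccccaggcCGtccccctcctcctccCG

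The promoters of Eng and Bmpr1a lay near opposite ends of the CpG range. The Eng promoter held 6 CpG dinucleotides and the Bmpr1a promoter, that of a start site inside the gene, held 48. The sequence at the outermost Bmpr1a start was not read. Among the 10818 tested genes with a promoter of this length the median was 20 (the first promoter listed was used for each), and 12.6% had fewer than the Eng promoter and 97.9% fewer than the Bmpr1a promoter. The Bmpr2 and Tgfb1 promoters, with 23 and 30, lay between them. The Tgfbr2 promoter held 15, and the promoters of the 2 Tgfbr1 start sites held 34 and 3. For Tgfbr3, Acvrl1, Bmp2 and Smad7 no promoter is shown. Both strands were searched for CAGAC, the core of the Smad-binding element, and for GGCGCC, a GC-rich Smad motif, which can share at most 1 base with it, and also for the palindromic Smad-binding element and the TATA box. The core was present in the promoters of Eng, Tgfbr2 and the downstream Tgfbr1 start, and in 47.8% of the 10818. The GC-rich motif was present in those of Bmpr1a, Bmpr2 and the upstream Tgfbr1 start, and in 20.5% of the 10818. The palindrome and the TATA box were in none of the 7 promoters of the listed genes, and in 0.222% and 7.59% of the 10818.

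Libraries held between 48104653 and 79281431 counts. Levels are CPM, counts scaled to a library of 1000000 after edgeR's TMM method. Suz12 itself averaged 20.3 ± 4.53 CPM in Suz12 cKO and 63.9 ± 8.92 CPM in WT (SD, n = 3 and n = 4; edgeR adjusted p = 0.00134), a sum over all exons that can include exons left by the deletion. All 12 listed markers of alveolar macrophages were detected and summed to 31729 to 35750 CPM in Suz12 cKO and 27610 to 32046 CPM in WT. Most of that sum was Chil3 (19467 ± 1470 CPM in Suz12 cKO and 17223 ± 1420 CPM in WT). Of the 12, edgeR called 6 higher (50%) and 2 lower (16.7%) in Suz12 cKO. Over all tested genes it called 6.28% higher and 4.02% lower. Libraries stood apart in transcripts of other cells: the summed haemoglobin level was 146 CPM for Suz12 cKO replicate 1, 108 CPM for Suz12 cKO replicate 2 and 39.7 CPM for WT replicate 2, and 1.94 to 3.72 CPM elsewhere. Those 3 libraries are referred to as high in haemoglobin. WT replicate 2 is the sole WT library in that class, and Suz12 cKO replicate 3 is the sole Suz12 cKO library in the low class. All values given below within a class therefore rest on 1 library of a genotype. In bulk RNA, a change in the share of cells with a transcript and a change in transcript per cell cannot be told apart.

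The 10 genes did not move alike. Eng, Tgfbr3, Bmpr1a and Bmp2 were higher by 3.46-fold or more in Suz12 cKO. The abundant TGF-beta receptor genes differed by 1.21-fold (Tgfbr1) and 1.26-fold (Tgfbr2), and the BMP receptor genes Bmpr2 and Acvrl1 by 1.06-fold and 0.997-fold. Tgfb1 and Smad7 averaged 1.37-fold and 2.24-fold of WT, with libraries that overlapped. In 6 of the 10 genes each Suz12 cKO library was above each WT library, and in none was it below. Over all 14436 tested genes the same pattern of higher libraries was found for 14.1%. In the edgeR fit, 5 of the 10 were past an adjusted p of 0.05, all higher, where 6.28% of all tested genes were called higher and 10.3% in either direction. Because the list was chosen from this comparison, nothing is read from those shares.

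**Figure D1:**
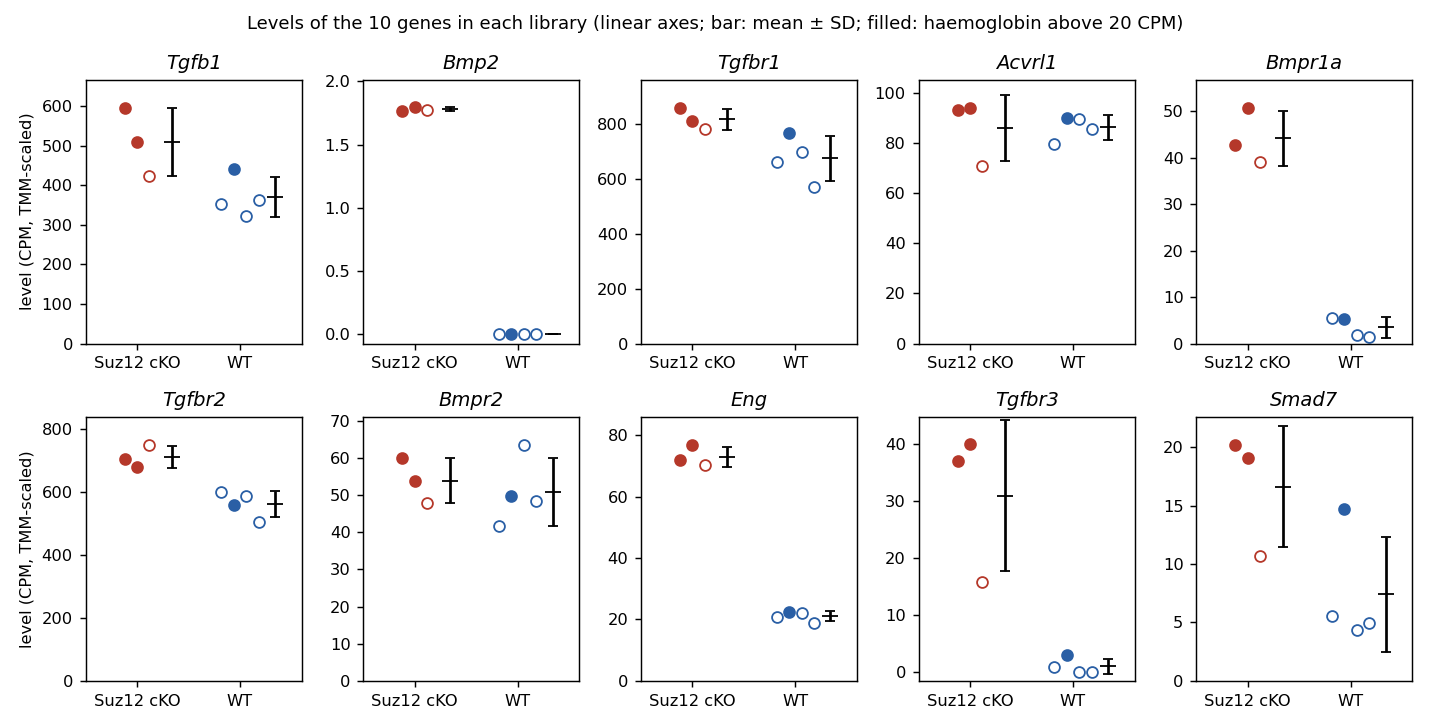
Level of each of the 10 genes in CPM after TMM scaling (linear vertical axes), 1 point per library, with Suz12 cKO (red) left of WT (blue) and the mean ± SD beside each group; filled points are the 3 libraries high in haemoglobin. Eng lay between 70.3 and 76.7 CPM in Suz12 cKO and between 19.0 and 22.3 CPM in WT, while Acvrl1 and Bmpr2 overlapped between genotypes.

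Tgfb1, the gene of the TGF-beta ligand made by most immune cells, had the highest level per length of the 10 genes in both genotypes (chromosome 7, 25687002 to 25705077 in GRCm38, as for all positions here). Tgfb1 had 595, 509 and 423 CPM in the Suz12 cKO libraries (replicates 1, 2 and 3, the order used throughout), against 354, 441, 323 and 364 CPM in the WT libraries (replicates 1, 2, 3 and 4). The groups overlapped: Suz12 cKO replicate 3 was below WT replicate 2. The means were 509 ± 86.0 CPM in Suz12 cKO and 370 ± 50.2 CPM in WT, and the log2 ratio of Suz12 cKO over WT was 0.46 (SE 0.14). In each genotype the libraries high in haemoglobin had the highest Tgfb1. The log2 ratio was 0.33 within the 3 libraries high in haemoglobin and 0.27 within the 4 low ones. The part that haemoglobin-rich RNA plays in the Tgfb1 difference was not tested.

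Bmp2, the gene of a BMP ligand, was found only in Suz12 cKO libraries (chromosome 2, 133552159 to 133562896). The Suz12 cKO libraries held 112, 118 and 127 counts of Bmp2, and the 4 WT libraries held 0 each. That is 1.77, 1.80 and 1.78 CPM in Suz12 cKO and no detection in WT. The SD in Suz12 cKO was 0.839% of the mean, less than the counting error of counts this low, and nothing is read from it. Against a floor of 3 counts over the WT group (0.0121 CPM), Bmp2 was at least 147-fold higher in Suz12 cKO, a bound that takes counts as independent reads. Library totals exceeded the 14000000 to 20000000 reads stated per sample, and if 1 read can give several counts the bound is lower. Bmp2 was the lowest of the 10 genes, and its level was alike in the Suz12 cKO libraries with high and low haemoglobin.

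Tgfbr1 encodes the type I receptor kinase for TGF-beta (chromosome 4, 47353222 to 47414926). It had 857, 809 and 782 CPM in the Suz12 cKO libraries, against 661, 767, 698 and 571 CPM in the WT libraries. The groups did not overlap, but the lowest Suz12 cKO library was 782 CPM and the highest WT library 767 CPM. Suz12 cKO was higher by 0.28 on the log2 scale (SE 0.10), by 0.12 within the libraries high in haemoglobin and by 0.27 within the low ones.

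Tgfbr2 encodes the type II receptor that binds TGF-beta first and recruits Tgfbr1 (chromosome 9, 116087695 to 116175363). It had 704, 679 and 748 CPM in the Suz12 cKO libraries, against 599, 559, 587 and 505 CPM in the WT libraries. Each Suz12 cKO library was above each WT library. The means were 710 ± 35.1 CPM in Suz12 cKO and 562 ± 41.8 CPM in WT, with a log2 fold change of 0.34 (SE 0.09), 0.31 within the libraries high in haemoglobin and 0.40 within the low ones. The 2 partner receptors kept near equal levels per length: the ratio of Tgfbr1 to Tgfbr2 averaged 0.973 ± 0.078 in Suz12 cKO and 1.01 ± 0.10 in WT.

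Eng encodes endoglin, a co-receptor best known from endothelial cells, where it works with the type I receptor encoded by Acvrl1 (chromosome 2, 32646595 to 32682669). Eng had 71.9, 76.7 and 70.3 CPM in the Suz12 cKO libraries, against 20.8, 22.3, 22.2 and 19.0 CPM in the WT libraries. Libraries of a genotype were close together and the genotypes were far apart, with coefficients of variation of 4.55% in Suz12 cKO and 7.42% in WT. The log2 fold change was 1.79 (SE 0.10), or 3.46-fold. It was 1.74 within the libraries high in haemoglobin and 1.75 within the low ones.

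Acvrl1, which encodes that type I receptor (ALK1, for BMP9 and BMP10; chromosome 15, 101128522 to 101145336), did not follow Eng. It had 93.1, 93.9 and 70.9 CPM in the Suz12 cKO libraries, against 79.6, 90.1, 89.5 and 85.5 CPM in the WT libraries. The WT range lay inside the Suz12 cKO range. Its log2 fold change was -0.004 (SE 0.12), and -0.27 within the libraries low in haemoglobin, where Suz12 cKO replicate 3 is the sole library of its genotype. Per length, the ratio of Eng to Acvrl1 was 0.78, 0.83 and 1.01 in Suz12 cKO and 0.265, 0.251, 0.252 and 0.225 in WT.

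Tgfbr3 encodes betaglycan, which presents TGF-beta2 to the signalling receptors and binds inhibins (chromosome 5, 107106567 to 107289629). It held 2344, 2617 and 1123 counts in Suz12 cKO and 66, 177, 0 and 0 counts in WT. In CPM this was 37.0, 39.8 and 15.7 in Suz12 cKO and 0.822, 2.90, 0 and 0 in WT. Suz12 cKO replicate 3, the one low in haemoglobin, had less than the other Suz12 cKO libraries, and the WT library with the most Tgfbr3 was replicate 2, the one high in haemoglobin. Its log2 fold change was 5.03 (SE 1.24), 3.73 within the libraries high in haemoglobin and 5.73 within the low ones. Without WT replicate 2 it was 6.61, and by limma voom 7.59. In each of these comparisons Suz12 cKO was the higher genotype.

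Bmpr1a encodes ALK3, a type I receptor for BMP2 and BMP4 (chromosome 14, 34411061 to 34503336). It had 42.7, 50.7 and 39.1 CPM in the Suz12 cKO libraries, against 5.58, 5.32, 1.75 and 1.36 CPM in the WT libraries. The lowest Suz12 cKO library was well above the highest WT library, and the WT libraries fell at 2 levels that did not follow haemoglobin. The means were 44.2 ± 5.94 CPM in Suz12 cKO and 3.50 ± 2.25 CPM in WT, a log2 fold change of 3.65 (SE 0.48). The value was 3.14 within the libraries high in haemoglobin and 3.73 within the low ones.

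Bmpr2, the type II receptor gene for BMPs (chromosome 1, 59764279 to 59878081), had 59.9, 53.9 and 47.9 CPM in the Suz12 cKO libraries, against 41.6, 49.7, 63.4 and 48.4 CPM in the WT libraries. The groups overlapped. The log2 fold change was 0.09 (SE 0.15), and 0.20 and -0.11 within the libraries high and low in haemoglobin. The ratio of Bmpr1a to Bmpr2 per length was 0.469, 0.619 and 0.537 in Suz12 cKO and 0.0882, 0.0704, 0.0182 and 0.0185 in WT.

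Smad7 encodes an inhibitory Smad that is itself induced by TGF-beta and marks the receptors for destruction (chromosome 18, 75367365 to 75395935). It had 20.2, 19.1 and 10.6 CPM in the Suz12 cKO libraries, against 5.56, 14.7, 4.39 and 4.95 CPM in the WT libraries. The groups overlapped, since WT replicate 2 exceeded Suz12 cKO replicate 3, and in each genotype the libraries high in haemoglobin had the most Smad7. The log2 fold change was 1.17 (SE 0.44), 1.73 without WT replicate 2, 0.42 within the libraries high in haemoglobin and 1.09 within the low ones.

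**Figure D2:**
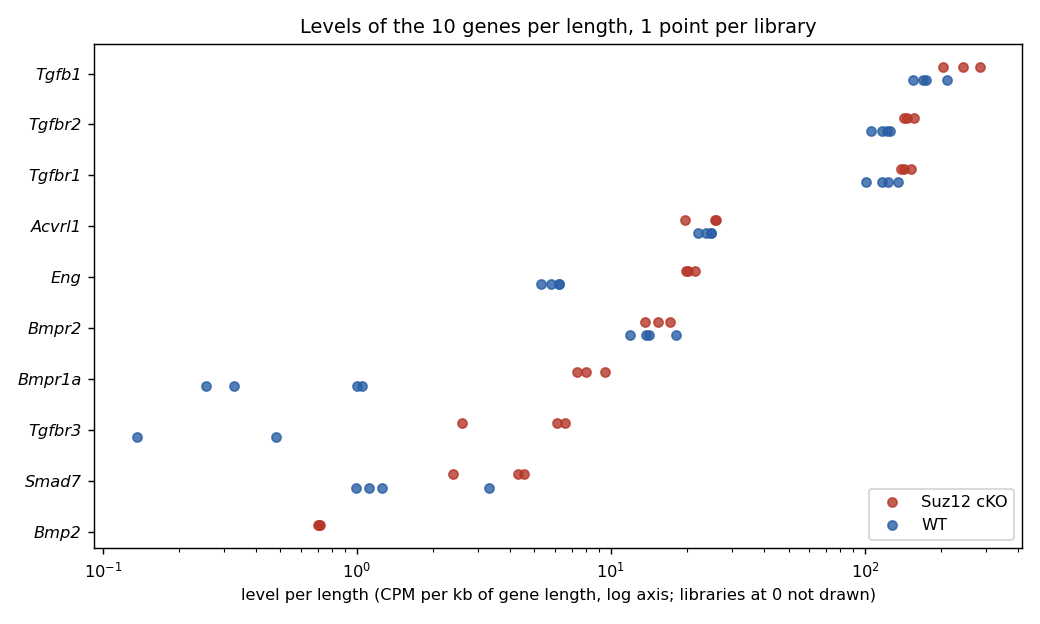
Level per length of each of the 10 genes (CPM per kb of the deposited gene length, log axis), 1 point per library, Suz12 cKO in red above WT in blue; WT libraries at 0 for Tgfbr3 (2 libraries) and Bmp2 (4 libraries) are not drawn. Tgfb1, Tgfbr1 and Tgfbr2 were above 100 CPM per kb in each library, and Eng lay above Bmpr2 in Suz12 cKO and below it in WT.

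Per length, the order of the genes was alike at its top and differed lower down. In Suz12 cKO the mean level ran from Tgfb1 (243 ± 41.1 CPM per kb) through Tgfbr2 (148 ± 7.33), Tgfbr1 (144 ± 6.67), Acvrl1 (23.7 ± 3.60), Eng (20.4 ± 0.929), Bmpr2 (15.4 ± 1.71), Bmpr1a (8.28 ± 1.11), Tgfbr3 (5.10 ± 2.18) and Smad7 (3.74 ± 1.17) to Bmp2 (0.708 ± 0.006). The neighbours Tgfbr2 and Tgfbr1, Acvrl1 and Eng, and Tgfbr3 and Smad7 overlapped in that order. In WT it ran from Tgfb1 (177 ± 24.0 CPM per kb) through Tgfbr1 (119 ± 14.4), Tgfbr2 (117 ± 8.73), Acvrl1 (23.8 ± 1.34), Bmpr2 (14.5 ± 2.61), Eng (5.90 ± 0.437), Smad7 (1.67 ± 1.10) and Bmpr1a (0.657 ± 0.423) to Tgfbr3 (0.154 ± 0.227), with Bmp2 at 0. There the neighbours Tgfbr1 and Tgfbr2, Smad7 and Bmpr1a, and Bmpr1a and Tgfbr3 overlapped. Tgfbr3 and Bmp2 were both at 0 in WT replicates 3 and 4.

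Summed over the 7 receptor and co-receptor genes, the level was 375, 363 and 357 CPM per kb in Suz12 cKO and 282, 299, 295 and 249 CPM per kb in WT. Tgfbr1 made up 39.4 ± 0.832% of that sum in Suz12 cKO and 42.2 ± 2.14% in WT, and Tgfbr2 40.6 ± 2.69% in Suz12 cKO and 41.8 ± 2.16% in WT (SD, n = 3 and n = 4). Eng made up 5.59 ± 0.280% in Suz12 cKO and 2.10 ± 0.031% in WT, Bmpr1a 2.27 ± 0.305% in Suz12 cKO and 0.229 ± 0.142% in WT, and Tgfbr3 1.39 ± 0.581% in Suz12 cKO and 0.052 ± 0.076% in WT. Acvrl1 made up 6.48 ± 0.882% in Suz12 cKO and 8.48 ± 0.711% in WT.

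**Figure D3:**
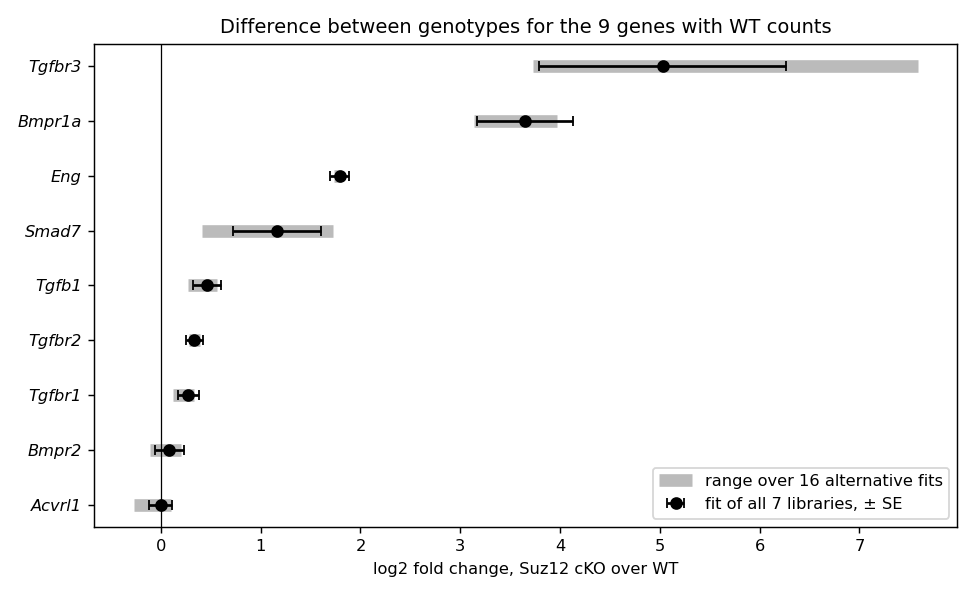
Log2 fold change of Suz12 cKO over WT (horizontal axis) for the 9 genes with WT counts, as the edgeR value of all 7 libraries ± SE (points and bars) over the range of 16 alternative fits (grey); Bmp2, with no WT count, is left out. The range for Eng ran from 1.73 to 1.81, that for Smad7 from 0.42 to 1.73, and those for Acvrl1 and Bmpr2 crossed 0.

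Several of the 10 genes are active in endothelium and in connective tissue cells, so markers of those cells were read in the same libraries. Of 12 endothelial markers, 8 of them tested, edgeR called 0 in either direction, with 1 higher at an unadjusted p under 0.05, 1 higher in DESeq2 and 0 in limma voom, and the list summed to 391 to 505 CPM in Suz12 cKO and 294 to 415 CPM in WT. Flt1 and Vwf made up most of that sum. The other 10, which include the defining genes Cdh5, Pecam1 and Kdr, summed to 5.38, 10.5 and 4.25 CPM in Suz12 cKO and to 0.834, 19.2, 0.272 and 0.289 CPM in WT, and Emcn was at 0 in each library. These markers were highest in WT replicate 2, and their part in the level of Eng was not tested. Of 10 markers of fibroblasts and pericytes, 4 of them tested, edgeR called 0, with 1 higher at an unadjusted p under 0.05, in DESeq2 and in limma voom. Their sum was 69.3 to 107 CPM in Suz12 cKO and 44.0 to 102 CPM in WT, most of it Cspg4, and the other 9 summed to 3.60, 4.98 and 0.770 CPM in Suz12 cKO and to 0, 21.5, 0 and 0.0619 CPM in WT. Within each genotype the library with the most of these 9 markers also had the most Tgfbr3, and their part in its level was not tested. Of 7 platelet and megakaryocyte markers, 5 of them tested, edgeR called 0, with 2 higher at an unadjusted p under 0.05, in DESeq2 and in limma voom; their sum was 15.4 to 20.7 CPM in Suz12 cKO and 1.90 to 10.1 CPM in WT, and its part in the levels of the 10 genes was not tested. Some markers of other myeloid cells moved with genotype. Of the tested monocyte or interstitial macrophage markers edgeR called 33.3% higher, and of the tested neutrophil markers 57.1%. Over all tested genes 6.28% were called higher and 4.02% lower. Among 12 genes marking monocytes or interstitial macrophages, 4 rose and 0 fell, and the list summed to 5249 to 7070 CPM in Suz12 cKO and 1969 to 3259 CPM in WT, most of it Fn1 (5616 ± 1065 CPM in Suz12 cKO and 2189 ± 508 CPM in WT). The other 11 summed to 247, 305 and 439 CPM in Suz12 cKO and to 104, 319, 150.5 and 137 CPM in WT, which overlapped. Of 8 neutrophil markers, 7 of them tested, 4 rose and 0 fell, with sums of 187 to 256 CPM in Suz12 cKO and 113 to 139 CPM in WT; Ly6g was at 0 in each library. Their part in the levels of the 10 genes was not tested. Of the tested markers of alveolar epithelium (10), erythroid cells (4), T and NK cells (3) and B cells (5) 0 were called in either direction by edgeR, DESeq2 or limma voom, nor at an unadjusted p under 0.05, and of the 12 alveolar macrophage markers 6 rose and 2 fell.

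The other genes of the pathway were read from 8 lists sorted by role, 113 genes in all, of which 67 were tested and 22 had no count in any library. Of the 67, 8 were called higher in Suz12 cKO and 1 lower (edgeR adjusted p under 0.05), or 11.9% and 1.49%, where 6.28% of all tested genes were called higher and 4.02% lower. The median log2 fold change was 0.48 over the 67 and 0.00 over all tested genes. The lists were written with earlier results of these data known, so nothing is read from these shares or medians. The count called higher moved with single libraries: it was 27 of 62 without WT replicate 2, when 10.7% of all genes were called higher. It was 4 of 71 (5.63%) without any one of the Suz12 cKO replicates, when 3.20%, 3.02% and 3.73% of all genes were called higher without replicates 1, 2 and 3. Without WT replicate 1 it was 5 of 67 (7.46%), against 4.57% of all genes. Nedd4l, Ltbp3, Zfyve9 and Hipk2 were called higher in each of the 16 alternative fits.

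Among the ligand genes, 6 of the 17 TGF-beta and activin ligands were tested and 0 were called by edgeR, DESeq2 or limma voom, with 0 at an unadjusted p under 0.05. Gdf15, a stress-induced member of the family, had 238, 295 and 147 CPM in the Suz12 cKO libraries, against 60.5, 269, 38.6 and 38.6 CPM in the WT libraries (edgeR adjusted p = 0.337). WT replicate 2 lay within the Suz12 cKO values. Inhba, which encodes the subunit of activin A, had 39.2, 21.8 and 2.98 CPM in the Suz12 cKO libraries, against 0.0996, 10.9, 0.630 and 0.309 CPM in the WT libraries (edgeR adjusted p = 0.255), and within each genotype it was highest in the libraries high in haemoglobin. Both were called higher without WT replicate 2. Within the libraries high in haemoglobin the log2 fold change of Gdf15 was -0.01, and within the low ones 1.67. For Inhba those values were 1.48 and 3.08. WT replicate 2 is the sole library of its genotype in the high class, and Suz12 cKO replicate 3 in the low class. Of the 14 BMP ligand genes besides Bmp2, the one tested, Amh, averaged 0.170 ± 0.134 CPM in Suz12 cKO and 0.546 ± 0.364 CPM in WT (edgeR adjusted p = 0.485). The other 13 did not exceed 1.20 CPM in any library, and 6 of them had no count.

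Of the 13 other receptor and co-receptor genes, 8 were tested, 1 rose and 0 fell. Acvr1c, which encodes the type I receptor ALK7 for activins and related ligands, had 15.7, 15.97 and 10.2 CPM in the Suz12 cKO libraries, against 1.28, 0.853, 0 and 0 CPM in the WT libraries. The groups did not overlap, with a log2 fold change of 4.66 (SE 1.18, edgeR adjusted p = 0.0386). The call was lost without any one of the Suz12 cKO replicates, in DESeq2 and within the libraries low in haemoglobin, with adjusted p up to 0.171 over the alternatives. Its WT counts lay in the same 2 WT libraries that held Tgfbr3. The abundant activin receptor gene Acvr1b and the BMP co-receptor gene Rgmb had log2 fold changes of -0.25 and -0.02 (edgeR adjusted p = 0.239 and 0.963).

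TGF-beta is secreted in a latent form, bound to carrier proteins and freed by integrins or proteases. Of the 12 genes listed for these steps 9 were tested, 2 rose and 0 fell. Ltbp3, a latent TGF-beta binding protein gene, had 24.7, 29.3 and 24.1 CPM in the Suz12 cKO libraries, against 7.32, 9.72, 5.74 and 4.47 CPM in the WT libraries. The groups did not overlap, with a log2 fold change of 1.93 (SE 0.25, edgeR adjusted p = 0.00268). The integrin gene Itgav, whose product pairs with beta chains that free TGF-beta, rose by 0.60 on the log2 scale (edgeR adjusted p = 0.0195), a call lost without any one of the Suz12 cKO replicates, without WT replicate 1 and within either haemoglobin class (adjusted p up to 0.117). Furin, whose protease cleaves the TGF-beta precursor, and Nrros, which encodes the latent TGF-beta anchor of macrophages, were not called, at 425 ± 18.2 against 453 ± 27.1 CPM and 161 ± 11.3 against 174 ± 12.3 CPM in Suz12 cKO against WT (edgeR adjusted p = 0.552 and 0.537).

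Of the 19 extracellular antagonists and modulators, 9 were tested, 1 rose and 0 fell. Tsku, a secreted protein known to bind BMPs in the chick, had 12.8, 9.91 and 18.5 CPM in the Suz12 cKO libraries, against 3.46, 3.54, 5.603 and 7.88 CPM in the WT libraries. The groups did not overlap, with a log2 fold change of 1.43 (SE 0.34, edgeR adjusted p = 0.0329). That call was lost without any one of the Suz12 cKO replicates, without WT replicate 1 or 3 and within the libraries low in haemoglobin (adjusted p up to 0.117). Twsg1 and Fstl1 had log2 fold changes of 0.24 and 2.09 (edgeR adjusted p = 0.274 and 0.0981). Fstl1 was called higher in DESeq2 (adjusted p = 0.0159) and without WT replicate 2 (edgeR adjusted p = 0.0371). Within the libraries low in haemoglobin, where Suz12 cKO replicate 3 is the sole library of its genotype, its log2 fold change was 3.39. Its log2 fold change was 1.35 without Suz12 cKO replicate 3 and ran from 0.48 to 3.39 over the alternatives.

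Inside the cell, 6 of the 7 Smad genes other than Smad7 were tested, 1 rose and 0 fell. Smad6, the inhibitory Smad that acts mainly on BMP signals, had 9.20, 9.68 and 8.004 CPM in the Suz12 cKO libraries, against 1.85, 3.69, 0.681 and 1.15 CPM in the WT libraries. The groups did not overlap, with a log2 fold change of 2.28 (SE 0.51, edgeR adjusted p = 0.0253), a call lost without any one of the Suz12 cKO replicates or without WT replicate 1 or 4 (adjusted p up to 0.0870). Smad2 and Smad4, a signal carrier and the common partner, had log2 fold changes of -0.13 and 0.11 (edgeR adjusted p = 0.545 and 0.722).

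Of the 15 intracellular regulators all were tested, 3 rose and 0 fell. Hipk2, a nuclear kinase gene, averaged 113 ± 13.4 CPM in Suz12 cKO and 60.0 ± 6.17 CPM in WT (log2 fold change 0.91, edgeR adjusted p = 0.00246). Zfyve9, which encodes SARA, the anchor that brings Smad2 and Smad3 to the receptor, averaged 13.9 ± 2.83 CPM in Suz12 cKO and 4.11 ± 0.700 CPM in WT (log2 fold change 1.76, edgeR adjusted p = 0.00265). Nedd4l, a ubiquitin ligase gene whose product removes activated Smads, averaged 18.0 ± 1.03 CPM in Suz12 cKO and 6.90 ± 1.67 CPM in WT (log2 fold change 1.39, edgeR adjusted p = 0.00508). In all 3 the lowest Suz12 cKO library was above the highest WT library. The corepressor genes Ski and Skil had log2 fold changes of 0.16 and 0.27 (edgeR adjusted p = 0.377 and 0.740).

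Of the 16 genes listed as transcriptional targets, 13 were tested, and edgeR called 0 higher and 1 lower. At an unadjusted edgeR p under 0.05, 2 were higher and 1 lower. DESeq2 called 1 higher and 1 lower, and limma voom 3 higher and 1 lower. Over all tested genes, edgeR, DESeq2 and limma voom called 6.28%, 9.65% and 8.28% higher. Tgfbi, a matrix protein gene named for its induction by TGF-beta, had 703, 591 and 699 CPM in the Suz12 cKO libraries, against 1073, 1288, 1194 and 1236 CPM in the WT libraries. Each Suz12 cKO library was below each WT library, with a log2 fold change of -0.85 (SE 0.10, edgeR adjusted p = 0.00160), and the gene was called lower in each of the 16 alternative fits. Tgm2, the tissue transglutaminase gene, had 898, 933 and 559 CPM in the Suz12 cKO libraries, against 608, 1409, 482 and 457 CPM in the WT libraries (edgeR adjusted p = 0.914). In each genotype Tgm2 was highest in the libraries high in haemoglobin, and the part of that RNA in its level was not tested.

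**Figure D4:**
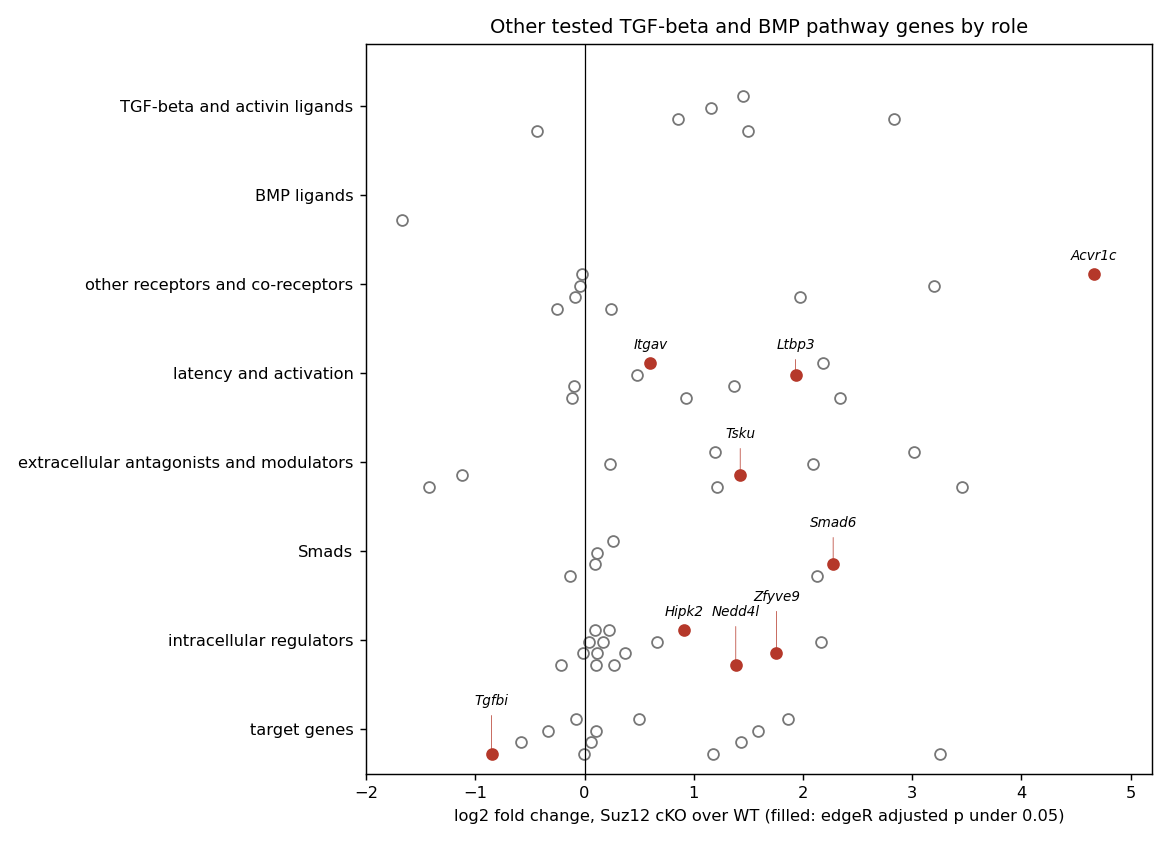
Log2 fold change of Suz12 cKO over WT (horizontal axis) for the 67 tested pathway genes outside the 10, 1 point per gene in rows by role, with the vertical offset within a row only separating points; filled red points were called at an edgeR adjusted p under 0.05. The 8 filled points right of 0 run from Itgav (0.60) to Acvr1c (4.66), and Tgfbi is the one filled point left of 0.

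The genes whose profile across the 7 libraries was most like that of Eng were Lmtk2, a kinase gene, Zfp704, a zinc finger gene, and Abhd6, a lipid hydrolase gene. Likeness was the root mean square difference of mean-centred log2 CPM from the member's own profile over 9699 other genes, which was 0.14 for Lmtk2, 0.17 for Zfp704 and 0.17 for Abhd6. Lmtk2 averaged 84.1 ± 14.4 CPM in Suz12 cKO and 27.2 ± 2.02 CPM in WT. For Tgfbr3 the nearest were Pitpnm2, a phosphatidylinositol transfer protein gene (0.60), Armcx2, an armadillo-repeat gene of the X chromosome (0.63), and Nid1, a basement membrane gene (0.66). All 3 were at 0 in WT replicates 3 and 4, as Tgfbr3 was. Pitpnm2 had 16.8, 28.4 and 20.7 CPM in the Suz12 cKO libraries, against 1.53, 2.30, 0 and 0 CPM in the WT libraries.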

How the data were processed

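RNA of sorted alveolar macrophages was measured in 3 Suz12 cKO and 4 WT libraries (TruSeq, single-end reads of 85 bp, per the labels). Each deposited file gives raw counts per gene and a gene length, made by the authors with featureCounts on mm10, per the submitters' processing notes; for the aligner, annotation and strand setting: not given in the sources used here. Counts (48104653 to 79281431 per library) exceeded the stated reads (14000000 to 20000000); the labels do not say why, so the floor for Bmp2, which covers counting error only, may be too low. Symbols, positions and promoters came from RefSeq for GRCm38.p6 by Entrez number (25275 of 27179 genes matched). Genes passing edgeR's filterByExpr (minimum count 10, total 15; 14436 genes) were scaled by TMM and compared with edgeR 4.0.16 (R 4.3.3, quasi-likelihood test, genotype alone), with Benjamini-Hochberg adjustment over all tested genes and calls at 0.05. The SE is the log2 fold change divided by the square root of F. Likeness used a prior count of 2 and genes with a mean of at least 5 CPM.

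The 10 genes and the lists were chosen with earlier results of these data known. Named besides the 10 were, in each role list, called genes (at most 6) and the 2 most abundant uncalled ones, of which 1 is not reported here. No 2 libraries were copies: chi-square per degree of freedom between replicates was 48.2 or more. The fit was tested on simulated data with 200 changed genes. It called 39% of the 2-fold and 80% of the 4-fold changes, with 5 false among 124 calls. A gene not called may therefore still differ. The submitters call the libraries biological replicates. Alternatives were RLE and upper-quartile scaling, no filter, DESeq2 1.42.0, limma 3.58.1 (voom), each library left out, the replicate number as a block, and a term or split for haemoglobin above 20 CPM.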

Additional observations from a re-analysis of the deposited data

Results flagged for a closer look

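In WT replicate 2, 11 of the 61 genes checked stood apart from the other 3 WT libraries, measured as the gap to the nearest library over the whole range (chance flags about 1 in 20 groups). Of the 10 genes this was Smad7 (0.887). Among other pathway genes they were Gdf15 (0.905), Inhba (0.951), Twsg1 (0.886), Skil (0.871) and Tgm2 (0.841). Among markers of other cells they were Col3a1 (0.998), Scgb1a1 (0.970), Hba-a2 (0.937), Hbb-bs (0.934) and Ighm (0.957). Each was highest in WT replicate 2.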

How the results depend on the processing

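With DESeq2, 1393 genes (9.65%) were called higher and 14 of the 67 other pathway genes tested (20.9%). Limma voom also called 14 of the 67 higher, against 8.28% of all genes. As above, nothing is read from these shares. The replicate block gave 585 genes higher (4.05%), 278 lower (1.93%) and 10 pathway genes higher (14.9%). Deviations from the group means correlated at -0.041, 0.242 and 0.158 for replicates 1, 2 and 3, so the numbers were not taken as pairs. Not every library correlated best with its own number. Within the libraries high in haemoglobin 328 genes were lower and 3 pathway genes were lower, and within the low ones 367 and 2; a lone library of a genotype is there assumed to vary like the others. Leaving out 1 library gave 447 to 1515 genes higher, 268 to 885 lower, 4 to 27 pathway genes higher and 1 pathway gene lower each time. Tgm2 had a log2 fold change of -0.62 within the libraries high in haemoglobin (edgeR adjusted p = 0.0113), against 0.11 in all libraries; the cause was not tested. The log2 fold changes of the 10 genes kept their sign in all 16 alternatives except Acvrl1 (10 of 16) and Bmpr2 (14 of 16).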
